A study of Mus musculus with 2 samples.

Results

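The miR-200 family, miR-203 and miR-205 are miRNAs best known from epithelial cells, and their levels were examined here in exosomes released by mouse macrophages. The 7 entries were chosen by name among the 1976 mature miRNAs listed. They are mmu-miR-200a-3p, mmu-miR-200b-3p and mmu-miR-429-3p from a cluster on chromosome 4, mmu-miR-200c-3p and mmu-miR-141-3p from a cluster on chromosome 6, and the single genes mmu-miR-203-3p and mmu-miR-205-5p. The prefix for mouse is left out below. The series compared small RNA of exosomes, small vesicles that carry RNA between cells, from bone marrow-derived macrophages of C57BL/6 mice aged 5 to 6 weeks. Marrow cells were grown for 7 days with M-CSF at 10 ng/mL, a growth factor that turns them into macrophages. Polarisation lasted 1 day, at 20 ng/mL of IFN-γ for M1 cells and of IL-4 for M2 cells. The cells were then kept for 2 days without serum before the vesicles were collected by ultracentrifugation. There was 1 library from M1 exosomes and 1 from M2 exosomes and no untreated library was analysed here, so replicate error is unknown throughout and every difference below is between these 2 libraries, not between the conditions.

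The miR-200 family holds epithelial cells in their state by repressing the transcription factors Zeb1 and Zeb2, which in turn repress both clusters. Loss of the family accompanies the epithelial-mesenchymal transition, in which cells give up E-cadherin junctions. A miRNA finds its targets mainly through its seed, bases 2 to 8 from the 5′ end, so members with different seeds bind largely different mRNAs. miR-203 restrains p63 and proliferation in stratified epithelium, and miR-205 is a marker of basal epithelial cells that also represses the Zeb factors. None of these miRNAs is a classical marker of macrophages.

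The mature sequences (RefSeq, build GRCm38.p6, 5′ to 3′, all 7 entries matched) are shown because the members are close copies that differ at few bases. Capitals mark the seed.
miR-200a-3p: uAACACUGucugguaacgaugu
miR-141-3p: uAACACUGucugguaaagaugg
miR-200b-3p: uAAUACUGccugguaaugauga
miR-200c-3p: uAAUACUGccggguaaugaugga
miR-429-3p: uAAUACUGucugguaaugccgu
miR-203-3p: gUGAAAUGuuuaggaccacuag
miR-205-5p: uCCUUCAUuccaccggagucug
The family thus falls into a pair with the seed AACACUG, miR-200a and miR-141, and a trio with the seed AAUACUG, miR-200b, miR-200c and miR-429. Each seed group takes members from both clusters. No listed miRNA with a RefSeq sequence outside the family carried either seed, and none shared the seed of miR-203-3p or miR-205-5p. Counting positions from the 5′ end, miR-200a-3p differed from miR-141-3p at 2 of 22 bases, C17A and U22G. miR-200b-3p differed from miR-200c-3p at 2 of the 22 bases compared, U11G and A22G, and lacks its last base. How reads that match several members were counted is not given in the sources used here, so a split of reads within these pairs is uncertain.

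The deposited values are log2(level + 1), where the level is in the authors' normalized units. Levels between 5 and 100 units lay near evenly spaced steps of 0.791 units in M1 and 1.26 units in M2 exosomes, and each step was read as 1 sequencing read. At the same steps all 29 miRNAs of the M1 library between 100 and 200 units, and all 21 of the M2 library, lay within 0.25 of a whole number of reads. Of random values 50% would lie within that tolerance. Within 0.1 of a whole number lay 65.5% of these M1 and 90.5% of these M2 miRNAs, so the fit was looser in M1. At these steps an equal level in both libraries corresponds to 61.5% of a miRNA's reads coming from the M1 library. In the M1 library 618 miRNAs were above 0 and in the M2 library 747, but the M2 values above 0 include levels worth less than 1 read. With no minimum level 747 miRNAs were compared as well, so each miRNA above 0 in M1 was also above 0 in M2. In M2 exosomes miR-214-3p, ranked 579th, stood at 0.080 units, so those ranked below it also lay under the worth of 1 read. In M1 exosomes miR-141-3p, ranked 611th, had 1 read. The 618 and 747 therefore do not compare how many miRNAs had reads. All 6 macrophage and myeloid markers checked (miR-223-3p, miR-142a-3p, miR-142a-5p, miR-155-5p, miR-146a-5p and miR-22-3p) passed the minimum level. Their levels in M1 exosomes ran from 142.4 units (miR-142a-3p), near the 119.6 units of miR-200a-3p, to 120500 units (miR-146a-5p). A miRNA was compared if it reached 10 units in at least 1 library, and was counted as different at a log2 ratio (M1 minus M2) of at least 1 in size, which is 2-fold. Intervals are exact 95% intervals on the reads (Poisson for a level, binomial for the share of reads from M1) and cover counting error only. Those of a log2 ratio are for the levels themselves, without the added 1. Reads without molecular identifiers are not independent molecules. In bulk RNA such as this, fewer vesicles from a cell type and less of a miRNA per vesicle cannot be told apart.

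Of the 7 members 5 reached the minimum, and they did not move together. miR-200a-3p and miR-200c-3p passed 2-fold towards M1 exosomes, 0 members passed it towards M2 exosomes, and miR-200b-3p, miR-429-3p and miR-203-3p lay within 2-fold. Among all 337 miRNAs compared, 26.1% passed 2-fold towards M1, 22.8% towards M2 and 49.0% either way, so 2 calls among 5 members are not read as a property of the group. The median log2 ratio was -0.46 over the 5 members and 0.04 over the 337. All members were minor species: the 7 together made up 0.0361% of the summed level of the M1 library (247.7 units, 313 reads) and 0.0243% of that of the M2 library (178.3 units, 141 reads). The log2 ratio of that sum was 0.47, with a counting interval of 0.18 to 0.77.

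**Figure D1:**
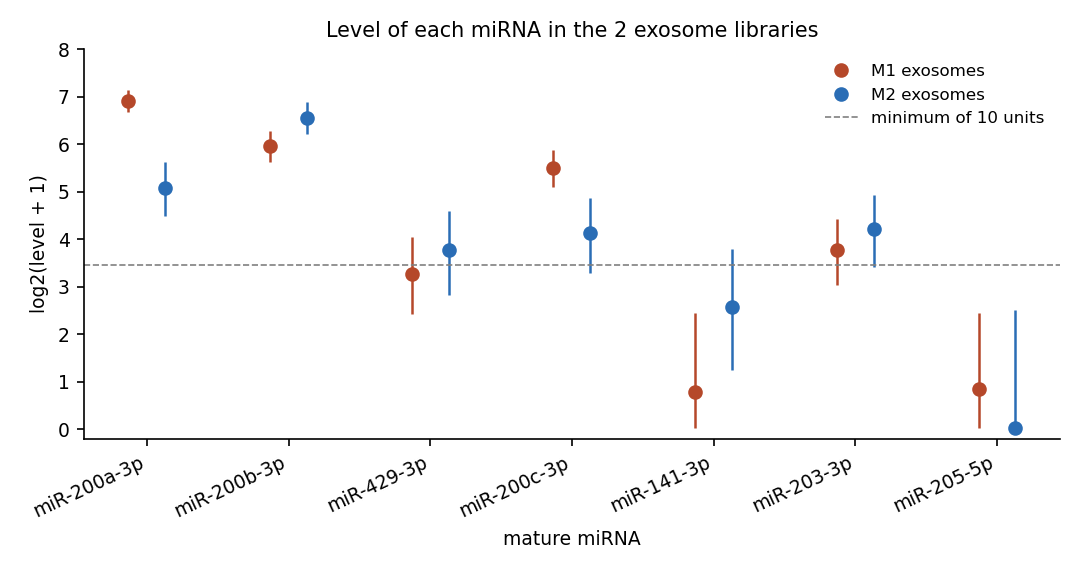
Deposited log2(level + 1) of the 7 miRNAs in M1 exosomes (red) and M2 exosomes (blue), 1 library each. Lines are exact 95% Poisson intervals of the reads, and the dashed line is the minimum of 10 units. miR-200a-3p (6.91 against 5.09) and miR-200c-3p (5.50 against 4.13) have intervals that do not overlap between libraries. Those of miR-200b-3p overlap narrowly (48.1 to 76.2 units in M1 and 73.4 to 117.4 units in M2 exosomes). Those of miR-429-3p, miR-141-3p, miR-203-3p and miR-205-5p overlap widely.

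The chromosome 4 cluster comprises 3 hairpins on the minus strand within an intron of Ttll10. Read along the transcript, miR-200b comes first (chr4:156055681-156055750), miR-200a begins 765 bp downstream (chr4:156054896-156054985) and miR-429 begins 1763 bp downstream (chr4:156053905-156053987). GENCODE M21 also places them in Gm13648, a processed transcript, where miR-429 overlaps an exon and the others lie in introns. In general the 3 are cut from 1 primary transcript, so they are not independent observations of a condition.

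miR-200a-3p was the most abundant of the 7 in M1 exosomes, at 119.6 units (151 reads, 101.2 to 140.2 units), against 32.97 units in M2 exosomes (26 reads, 21.5 to 48.1 units). It was 3.55-fold higher in M1 exosomes, a log2 ratio of 1.83 (1.26 to 2.52), and ranked 139th there against 204th in M2 exosomes. Of its 177 reads 85.3% (79.2% to 90.2%) came from the M1 library, well above the 61.5% of an equal level. The counting interval of its ratio lay entirely above the 2-fold line.

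miR-200b-3p took the opposite side. Its level was 60.9 units in M1 exosomes (77 reads, 48.1 to 76.2 units) and 93.5 units in M2 exosomes (74 reads, 73.4 to 117.4 units), which made it the most abundant of the 7 in M2 exosomes. The log2 ratio was -0.61 (-1.10 to -0.14), or 1.53-fold higher in M2 exosomes, within the 2-fold line. With 51.0% of its 151 reads from M1 (42.7% to 59.2%), its interval did not meet that of its neighbour miR-200a-3p.

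miR-429-3p, which has the seed of miR-200b, lay nearer to miR-200b than to miR-200a. It stood at 8.67 units in M1 exosomes (11 reads) and 12.6 units in M2 exosomes (10 reads), with a log2 ratio of -0.49. Its interval, -1.91 to 0.86, spans equal levels and both directions, so 21 reads do not fix its direction.

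The cluster's balance therefore differed between the libraries. miR-200a-3p made up 63.2% of the cluster's summed level in the M1 library and 23.7% in the M2 library, while miR-200b-3p made up 32.2% and 67.2% and miR-429-3p 4.58% and 9.08%. The order of the 2 leading members was reversed, and in each library their level intervals were apart. Summed, the cluster reached 189.2 units in M1 and 139.1 units in M2 exosomes, a log2 ratio of 0.44 (0.11 to 0.78), which hides the divergence of its members.

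**Figure D2:**
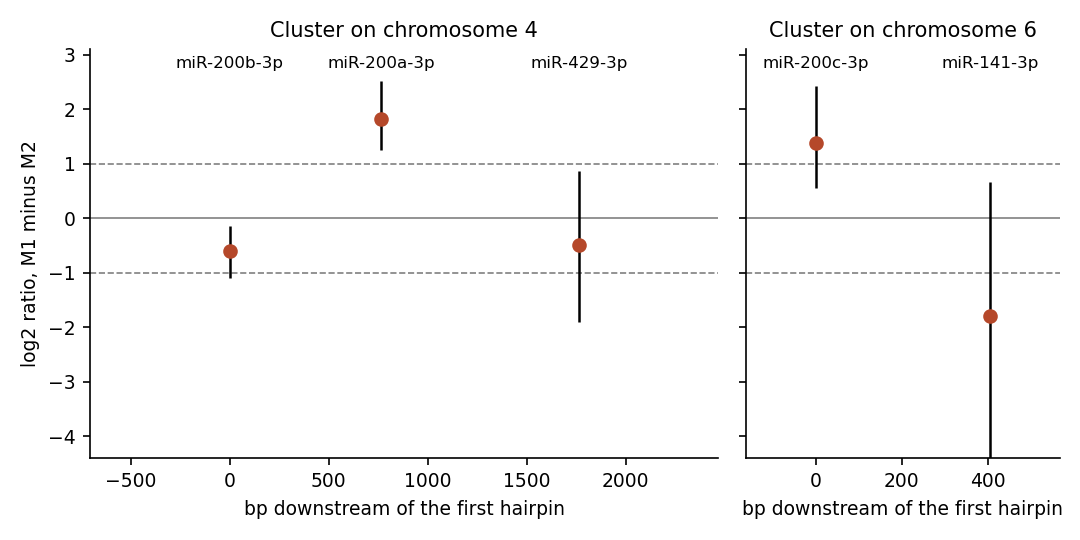
Log2 ratio (M1 minus M2) of each member against the distance of its hairpin, in bp, downstream of the first hairpin of its cluster, with exact 95% counting intervals as lines (1 library per group). The interval of miR-141-3p runs below the axis to -8.30. The dashed lines mark 2-fold. In the chromosome 4 cluster miR-200a-3p (1.83) lies apart from miR-200b-3p (-0.61) and miR-429-3p (-0.49), which flank it.

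Unequal ratios between neighbours were common in these libraries. A comparison made after the values were seen took pairs of compared miRNAs from hairpins on 1 strand within 10 kb, with 1 arm per hairpin. The 75 such pairs outside the family, formed by 66 miRNAs, differed in log2 ratio by a median of 0.99 and by up to 3.65. miR-200a-3p and miR-200b-3p differed by 2.44, and 8 of the 75 pairs (10.7%) differed by more. miR-200a-3p and miR-429-3p differed by 2.32, which 13 pairs exceeded. miR-200b-3p and miR-429-3p differed by 0.12, and 69 pairs exceeded that.

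The other arm of the miR-200a hairpin gave a further reading of the same precursor. In the hairpin (chr4:156054896-156054985, minus strand) both mature arms are in capitals, the 5p arm first.
miR-200a hairpin: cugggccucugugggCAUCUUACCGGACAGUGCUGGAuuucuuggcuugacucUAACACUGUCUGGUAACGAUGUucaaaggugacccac
miR-200a-5p, the passenger strand, was listed at 6.39 units in M1 exosomes (8 reads) and 1.36 units in M2 exosomes (1 read), below the minimum in both. Of its 9 reads 88.9% came from M1, with an interval of 51.8% to 99.7% that includes equal levels. Its share of the reads of both arms was 5.03% in M1 exosomes (2.20% to 9.67% of 159 reads) and 3.70% in M2 exosomes (0.0937% to 19.0% of 27 reads), so a change in arm use was not detectable at this depth. The opposite arms of the other members (miR-200b-5p, miR-429-5p, miR-200c-5p, miR-141-5p, miR-203-5p and miR-205-3p) were listed at 0 in both libraries, for which a floor of 3 reads is used (2.37 units in the M1 library, 3.79 units in the M2 library). The exact 2-sided interval of 0 reads is slightly wider and reaches 2.92 and 4.66 units.

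The chromosome 6 cluster lies in introns of Gm15884, an antisense transcript between Phb2 and Ptpn6, the latter a phosphatase gene of blood cells. miR-200c comes first (chr6:124718322-124718390, minus strand) and miR-141 begins 405 bp downstream (chr6:124717914-124717985). miR-200c-3p stood at 44.4 units in M1 exosomes (56 reads, 33.5 to 57.6 units) and 16.5 units in M2 exosomes (13 reads, 8.75 to 28.1 units). It was 2.59-fold higher in M1 exosomes, a log2 ratio of 1.37 (0.54 to 2.43), and 81.2% of its 69 reads (69.9% to 89.6%) came from M1. The interval of miR-200c-3p excludes equal levels but reaches below 2-fold.

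miR-141-3p, its neighbour, was close to the limit of detection, with 0.72 units in M1 exosomes (1 read) and 4.96 units in M2 exosomes (4 reads). It did not reach the minimum. Its log2 ratio of -1.80 points away from that of miR-200c-3p, but the interval of -8.30 to 0.66 includes equal levels. The summed level of the cluster was 45.1 units against 21.5 units, a log2 ratio of 1.04 (0.27 to 1.95). miR-200c-3p gave 56 of its 57 reads in M1 and 13 of its 17 reads in M2 exosomes, and the 4 reads of miR-141-3p there bring the sum from 1.37 to the 2-fold line. It was 1.00 after centring on the median miRNA and 0.81 with a pseudocount of 10.

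Grouped by seed in place of cluster, a grouping not among the planned sums, the sums lay further apart. The pair with the seed AACACUG summed to 120.3 units in M1 exosomes (152 reads) and 37.9 units in M2 exosomes (30 reads), a log2 ratio of 1.64 (1.09 to 2.28). miR-200a-3p gave 151 of the 152 reads in M1 exosomes and 26 of the 30 in M2 exosomes, the rest being miR-141-3p. The trio with the seed AAUACUG summed to 114.0 units in M1 exosomes (144 reads) and 122.6 units in M2 exosomes (97 reads), a log2 ratio of -0.10 (-0.49 to 0.28). Within the trio the higher miR-200c-3p of M1 exosomes was offset by the higher miR-200b-3p of M2 exosomes. The sums also do not depend on how reads were split between the near-identical pairs, since miR-200a-3p with miR-141-3p and miR-200b-3p with miR-200c-3p share a seed. The intervals of the 2 seed groups did not overlap. They rest on the same reads as the values of the members above and are not further evidence.

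**Figure D3:**
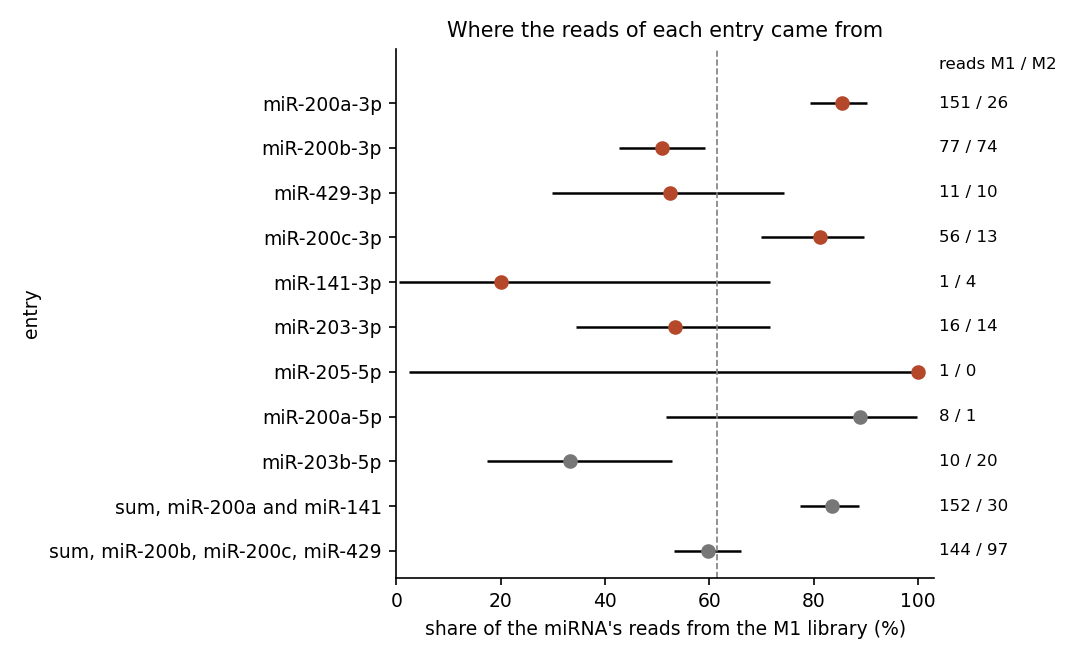
Share of the reads of each entry that came from the M1 library, in percent, with exact 95% binomial intervals as lines and the reads of both libraries at the right. The dashed line at 61.5% is the share at equal levels. The intervals of miR-200a-3p (79.2% to 90.2%) and miR-200c-3p (69.9% to 89.6%) lie above it and that of miR-200b-3p (42.7% to 59.2%) below it.

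miR-203, a single gene between annotated genes at chr12:112130880-112130955 on the plus strand, lay within 2-fold. miR-203-3p stood at 12.6 units in M1 exosomes (16 reads, 7.24 to 20.6 units) and 17.7 units in M2 exosomes (14 reads, 9.67 to 29.7 units), a log2 ratio of -0.46 (-1.61 to 0.66). An antisense entry overlaps it. miR-203b-5p is listed from a separate gene, Gm51289, on the opposite strand at the same position. Its 20 bases are the exact reverse complement of the first 20 bases of miR-203-3p.
miR-203b-5p: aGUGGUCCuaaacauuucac
miR-203b-5p stood at 7.83 units in M1 exosomes (10 reads) and 25.2 units in M2 exosomes (20 reads), 2.97-fold higher in M2 exosomes with a log2 ratio of -1.57 (-2.93 to -0.51). Whether the counting used strand is not given in the sources used here, so it is not known how the reads of the locus were assigned to the 2 entries. Their log2 ratios differed by 1.11, but with 30 reads per entry their counting intervals overlapped. In an unplanned comparison, the 7 other antisense pairs in which both entries reached the minimum differed by 0.08 to 0.98. The difference of 1.11 at this locus was larger than in all 7. Because the counting intervals of its 2 entries overlapped, this difference is not read as a property of the locus. Taken as 1 locus, the 2 entries summed to 20.4 units against 42.8 units, a log2 ratio of -1.03 (-1.86 to -0.28), just past 2-fold towards M2 exosomes. miR-203b-5p had more reads in M2 exosomes than miR-203-3p itself, 20 against 14.

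miR-205-5p (hairpin at chr1:193507463-193507530, minus strand, in an exon of 4631405K08Rik, the host gene of miR-205) was close to absent. It had 1 read in M1 exosomes (0.80 units) and 0 reads in M2 exosomes, where the value of 0.03 is below the worth of 1 read. Both counts are under the floor of 3 reads, so no ratio is given. Basal epithelial cells carry this miRNA at high levels, and here it had the fewest reads of the 7.

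By level per mature molecule, all 22 or 23 bases long, the order in M1 exosomes was miR-200a-3p, miR-200b-3p, miR-200c-3p, miR-203-3p, miR-429-3p, miR-205-5p and miR-141-3p. The level intervals of miR-200b-3p and miR-200c-3p overlapped, as did those of each neighbouring pair from miR-203-3p downwards. In M2 exosomes the order was miR-200b-3p, miR-200a-3p, miR-203-3p, miR-200c-3p, miR-429-3p, miR-141-3p and miR-205-5p. There only miR-200b-3p was apart from the next in order by its interval.

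Each member had close neighbours in the plane of M1 and M2 values, by the distance between log2 values over the 2 libraries. The nearest to miR-200a-3p were miR-28a-5p (6.67 in M1 and 5.42 in M2 exosomes, distance 0.42) and miR-411-5p (distance 0.48). Those nearest to miR-200c-3p were miR-379-3p (distance 0.10) and miR-19b-3p (distance 0.14). miR-340-3p (0.25) and miR-6406 (0.26) lay nearest to miR-200b-3p, miR-34c-5p (0.13) and miR-669c-3p (0.14) to miR-429-3p, and miR-3074-1-3p (0.13) and miR-542-3p (0.35) to miR-203-3p. With 2 libraries such likeness describes level and ratio and nothing further.

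**Figure D4:**
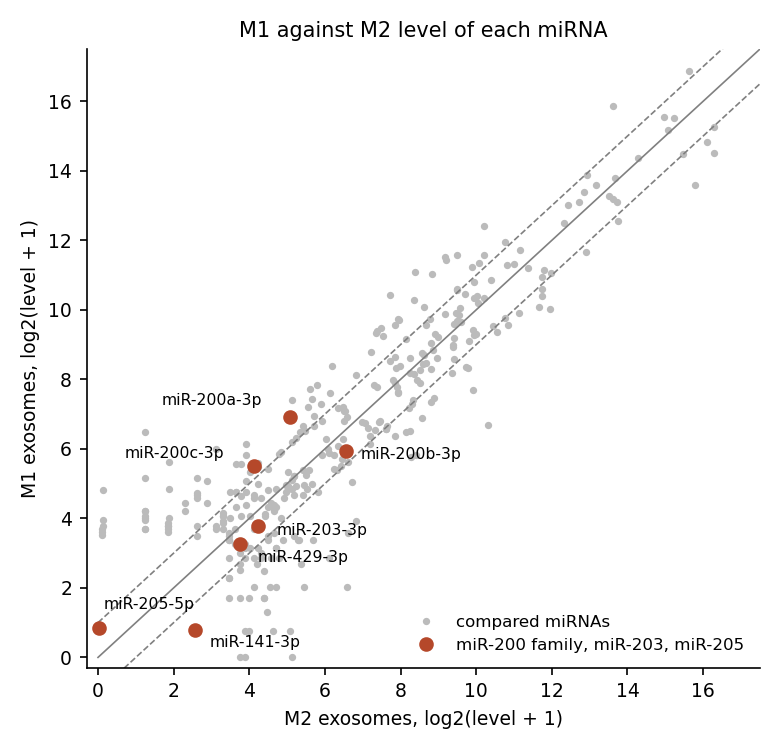
Deposited log2(level + 1) in M1 exosomes against M2 exosomes for the 337 miRNAs compared (grey) and the 7 members (red), 1 library each. The solid line marks equal values and the dashed lines 2-fold. The members lie in the lower part of the range, with miR-200a-3p and miR-200c-3p above the upper dashed line and the other compared members within 2-fold.

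Of the other miRNAs of epithelial cells, some were present at similar levels and some were listed at 0. miR-183-5p and miR-182-5p, from a sensory and epithelial cluster, were at 197.9 and 55.4 units in M1 exosomes and at 245.1 and 74.5 units in M2 exosomes. Their log2 ratios were -0.31 (-0.59 to -0.03) and -0.42 (-0.95 to 0.10), both within 2-fold, and the interval of miR-182-5p includes equal levels. miR-375-3p, a miRNA of endocrine and secretory epithelium, was below the minimum with 3 reads in M1 and 5 reads in M2 exosomes. miR-96-5p of the miR-183 cluster and miR-31-5p were listed at 0 in both libraries. Of this list of 6, which includes miR-203b-5p, 3 were compared. Towards M1 0 of them passed 2-fold, and towards M2 1 did, miR-203b-5p (median log2 ratio -0.42). Among all 337 miRNAs compared 26.1% passed towards M1 and 22.8% towards M2, so these counts are not read as a property of the list. The M1 excess of miR-200a-3p and miR-200c-3p was thus not seen in miR-183-5p or miR-182-5p, whose intervals lay below those of both.

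Of 5 miRNAs that restrain the epithelial-mesenchymal transition outside the miR-200 family, 4 were compared and 1 passed 2-fold towards M1 (median log2 ratio 0.04), a share close to the 26.1% of all miRNAs. That one was miR-30a-5p, which represses Snai1, at 1.36. miR-34a-5p and miR-34c-5p, which p53 induces, had -0.29 and -0.62, miR-101a-3p had 0.38, and miR-34b-5p was listed at 0 in both. Of 4 miRNAs that promote the transition, miR-10b-5p, which Twist1 induces, was higher in M1 exosomes at 2.09, as was miR-155-5p at 1.35. miR-9-5p, which represses E-cadherin, was higher in M2 exosomes at -3.61, and miR-21a-5p had -0.99. Neither list moved in 1 direction.

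Markers of several cell types other than macrophages were also in these libraries. The counts below stand beside the 26.1% of all miRNAs that passed 2-fold towards M1 and the 22.8% towards M2. The 4 erythroid markers summed to 5192 units in the M1 library and 910.1 units in the M2 library, and 3 of 3 compared were higher in M1 exosomes. The 3 hepatocyte markers summed to 60270 and 13050 units, with 1 of 3 higher in M1 exosomes. miR-122-5p alone gave 59760 and 12650 of those units, and miR-192-5p and miR-194-5p were within 2-fold. The 5 stromal markers summed to 1329 and 776 units, with 2 of 4 higher in M1 exosomes. The 6 macrophage and myeloid markers summed to 127100 and 54170 units, with 4 of 6 past 2-fold towards M1 and 1 towards M2. miR-146a-5p alone gave 120500 and 50600 units of that sum, while miR-223-3p (-0.69) and miR-142a-3p (-1.07) had negative log2 ratios. The 5 epithelial markers beyond the members summed to 255.6 and 325.9 units, with 2 at 0 in both libraries. The muscle markers (18.1 and 28.9 units), the lymphocyte marker miR-150-5p (10.2 and 35.3 units) and the neuronal markers (102.8 and 1264 units) were lower in M1 than in M2 exosomes by these sums. The neuronal miR-124-3p was at 0 in both, so miR-9-5p alone gave the neuronal sum. For muscle, the 1 marker compared, miR-206-3p, had a log2 ratio of -0.27 (-1.29 to 0.75), which includes equal levels. The part of other cell types in the levels of the miR-200 family was not tested.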

How the data were processed

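Small RNA libraries (NEBNext kit, 500 ng of Trizol-extracted RNA) of 1 M1 and 1 M2 exosome preparation were used, grouped by their titles. The authors deposited 1 log2 value per mature miRNA and library. The submitters' processing notes name Bowtie2, bedtools and mm10 with no roles. How values were normalized, reads that match several miRNAs treated and strand used is not given in the sources used here. Levels were obtained by undoing the log2 and subtracting the pseudocount of 1. The worth of 1 read was the step that left levels of 5 to 100 units nearest to whole multiples, and levels up to 200 units served as the check. At these steps the minimum of 10 units is 12.6 reads in M1 and 7.92 reads in M2 exosomes. The summed levels would correspond to 867264 and 581522 reads, an extrapolation beyond the checked range. The planned minimum allowed for CPM or the deposited unit, and the deposited unit was used. With 1 library per group no test was made. The named miRNAs are the members, their opposite arms, seed mates, the 2 nearest miRNAs by log2 values, and members of the fixed lists. Members and lists were chosen with earlier results of these data known. Sequences and hairpin positions come from RefSeq (GRCm38.p6, 1677 of 1976 names matched) and gene overlaps from GENCODE M21 on the same assembly, called mm10. The procedure was tested on simulated data of whole reads at 1 constant step per library. Deposited levels that lie off whole multiples, or below the worth of 1 read, were not covered by that test. Calculations used Python 3.11.15, numpy 2.4.6, pandas 2.3.3 and scipy 1.17.1, and figures matplotlib 3.10.9.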

Additional observations from a re-analysis of the deposited data

How the results depend on the processing

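Alternatives covered the minimum level, the scaling, the median centring, the pseudocount and, chosen after seeing the data, the sum of miR-203-3p with miR-203b-5p. Of the 75 values recomputed under the 9 alternatives, 72 stayed within 1.5 times the count or within the counting interval, and 0 called ratios changed sign. This criterion is lenient where reads are few. With a pseudocount of 10 the log2 ratio of miR-141-3p went from -1.80 to -0.48 and still counted as staying. Changes of scaling and centring shift all ratios by nearly the same amount, so they could move few values. The number of members higher in M1 exosomes became 1 with a minimum of 100 units, where only miR-200a-3p was compared. The number higher in M2 exosomes became 1 with no minimum, by miR-141-3p, and 1 with the summed miR-203 entries. Over all miRNAs compared, a minimum of 100 units left 37 higher in M1 and 33 in M2 exosomes, and no minimum gave 201 and 229. The counts without a minimum are among 747 miRNAs and include entries under the floor of 3 reads. One is miR-133a-3p, with 0 reads in M1 and 1 read in M2 exosomes, so these counts give no direction. Division by the summed level gave 94 and 63 against 88 and 77, and moved the median log2 ratio from 0.04 to 0.15. No paired analysis was possible because M1 and M2 are single libraries, which also leaves none to drop. For miR-429-3p, miR-203-3p and miR-141-3p, with at most 30 reads in both libraries together, the counting interval of the ratio included equal levels.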
